A study of Saccharomyces cerevisiae with 13 samples.

Results

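The genes described here encode proteins of the mitochondrial ribosome of Saccharomyces cerevisiae. They were chosen by symbol alone, as every gene named MRPL, MRPS, RSM or MRP followed by a number, without MRP8. The rule uses no expression value, but it was set with earlier results of these data known. The annotation holds 66 such genes, and 65 of them were measured, out of 5446 protein-coding genes on the array. MRP35, the other one, was not analysed here. The 65 members comprise 37 proteins of the large subunit, 27 of the small subunit and RSM22, an assembly factor of the small subunit that resembles methyltransferases. By the unified nomenclature of ribosomal proteins, 40 members have a bacterial counterpart and 24 are specific to mitochondria.

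Mitochondrial ribosomes translate the few proteins encoded by mitochondrial DNA, which are mostly core subunits of the respiratory chain and of the ATP synthase. Their RNA comes from the mitochondrial genome, but nearly all of their proteins are encoded in the nucleus, made on cytosolic ribosomes and imported. In budding yeast many of the corresponding mRNAs are bound by Puf3, an RNA-binding protein that represses them during growth on glucose. The tRNAs deleted in this study are nuclear-encoded and serve cytosolic translation.

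Messenger RNA was measured on 13 Affymetrix yeast 2.0 arrays of haploid cells in the Y5565 background, a MATα strain with MFA1pr-HIS3 at can1Δ, MFα1pr-LEU2 at mfα1Δ and the alleles lyp1Δ, ura3Δ0 and leu2Δ0, grown in rich medium (YPD) at 30°C and harvested in mid log phase. In each deletion strain 1 tRNA gene was replaced by a hygromycin resistance cassette, and the wild type carries the same cassette upstream of another tRNA gene. The SC group held 2 arrays each of ΔtM(CAU), ΔtR(CCU)J and ΔtL(GAG)G. The MC group held ΔtR(UCU)M2 and ΔtH(GUG)G1, also with 2 arrays per strain. The reference was wild type, with 3 arrays. The labels of ΔtM(CAU) name no gene copy, and the article's set of arrays implies an initiator methionine tRNA gene. The replicates are labelled as biological, and how many clones of a strain they came from is not stated in the sources used here.

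Signals are linear intensities per probe set, and all differences are given as log2. Every member is measured by a single probe set. All 65 members lay above background on every array, where background is the 95th percentile of the Schizosaccharomyces pombe probe sets of the same array, a signal of 12.9 to 21.5. The dimmest reading was that of MRPL4 on wild-type replicate 2, with a signal of 79.5 against a background of 20.6, and 63 of the 65 members had a mean log2 signal over 8. The median signal of all genes was 491 to 626. The α-specific markers STE3, MF(ALPHA)2 and SAG1 were above background on every array, and so were 5 or 6 of 6 a-specific and 5 or 6 of 6 sporulation genes. The summed signal of the α-specific markers was 5348 to 17200, against 288 to 533 for the a-specific and 331 to 836 for the sporulation genes. Genes of the mitochondrial genome have no probe set assigned to 1 gene here, so the presence of mitochondrial DNA in these cultures was not examined.

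First it was asked whether the members as a group differed between strains. On each array the median over the 65 members of the log2 signal minus the gene's wild-type mean was taken, and the same median over all genes was subtracted. The value was -0.21 and 0.02 on the 2 ΔtM(CAU) arrays, -0.17 and -0.02 on the 2 ΔtR(CCU)J arrays and -0.09 and 0.08 on the 2 ΔtL(GAG)G arrays. It was 0.01 and -0.07 on the ΔtR(UCU)M2 arrays and -0.07 and -0.03 on the ΔtH(GUG)G1 arrays, against -0.18, 0.10 and 0.08 on the 3 wild-type arrays. Pooled over strains, replicates lay farther apart than the strain means did, although the ΔtH(GUG)G1 replicates were close, with an SD of 0.03. The SD between replicates, pooled over the 6 strains, was 0.12 (7 degrees of freedom), whereas the SD of the 6 strain means was 0.04. Each strain mean averages 2 or 3 arrays, so the means would spread less than single arrays even without strain differences.

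The 4 arrays with the lowest group level were replicate 1 of the wild type and replicate 1 of each SC strain. Over all genes these 3 SC arrays also correlated more closely with wild-type replicate 1 than with the other wild-type arrays. The labels name no batch. With arrays blocked by the wild-type array they correlate with best, the members' median difference relative to all genes was -0.07 in ΔtM(CAU), -0.04 in ΔtR(CCU)J and 0.02 in ΔtL(GAG)G, against -0.11, -0.09 and -0.0043 without the block. For the MC strains it was -0.09 in ΔtR(UCU)M2 and for ΔtH(GUG)G1 -0.12, against -0.03 and -0.07 without the block. The arrays of replicate 2 all correlated best with wild-type replicate 3, and replicate 1 of both MC strains with wild-type replicate 2. For comparison, the level of 127 cytosolic ribosomal protein genes, taken in the same way, was -0.29 ± 0.03 for ΔtM(CAU), -0.57 ± 0.27 for ΔtR(CCU)J, -0.28 ± 0.09 for ΔtL(GAG)G, 0.17 ± 0.06 for ΔtR(UCU)M2 and -0.02 ± 0.32 for ΔtH(GUG)G1, against 0.00 ± 0.20 for wild type (SD, n = 2 arrays per deletion strain and 3 of wild type). The members' level was -0.10 ± 0.16 for ΔtM(CAU), -0.10 ± 0.10 for ΔtR(CCU)J, 0.00 ± 0.12 for ΔtL(GAG)G, -0.03 ± 0.06 for ΔtR(UCU)M2 and -0.05 ± 0.03 for ΔtH(GUG)G1, against 0.00 ± 0.16 for wild type. In a bulk culture, fewer cells with a transcript and less transcript per cell cannot be told apart.

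**Figure D1:**
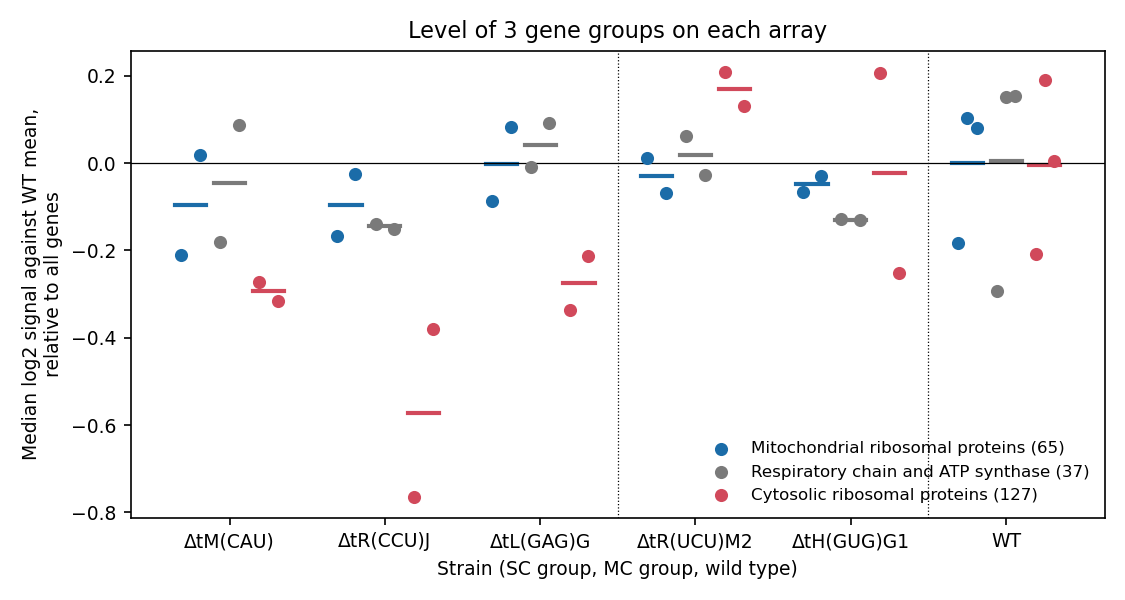
Level of 3 gene groups on each array, as the median over the group of log2 signal minus the wild-type mean, less the same median over all genes. Points are single arrays, bars are strain means, and dotted lines separate the SC strains, the MC strains and wild type. The mitochondrial ribosomal protein genes stayed between -0.21 and 0.10, with a pooled SD of 0.12 between replicates of a strain, while the cytosolic ribosomal protein genes reached -0.76 on a ΔtR(CCU)J array.

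Single members were then compared in a linear model of all 13 arrays (limma), with p-values adjusted over all 5446 genes by the Benjamini-Hochberg method and a threshold of 0.05 for a call. The 5 comparisons with wild type share the same 3 wild-type arrays. Members were called in the ΔtR(CCU)J strain alone, where RSM22 and MRP4 rose and MRPL38 fell. Of all genes, 6.63% were called higher and 1.93% lower in this strain, and the 2 and 1 of 65 members were smaller shares than these.

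RSM22 (YKL155C) had log2 signals of 8.49 and 8.32 in ΔtR(CCU)J, against 7.73, 7.58 and 7.82 in wild type. Both ΔtR(CCU)J arrays lay above every other array of the series, and the highest of the others was 7.86 on a ΔtM(CAU) array. The difference from wild type was 0.70 (SE 0.15, limma adjusted p = 0.0271), a 1.63-fold higher signal. MRP4 (YHL004W) encodes the small subunit protein uS2, which in bacteria binds the ribosome late in assembly. Its log2 signal was 9.23 and 8.86 in ΔtR(CCU)J, against 8.48, 8.24 and 8.38 in wild type, and again both arrays lay above all 11 others. The difference was 0.69 (SE 0.15, limma adjusted p = 0.0310), or 1.61-fold.

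MRPL38 (YKL170W) encodes uL14, a large subunit protein that faces the small subunit in bacterial ribosomes. Its log2 signal was 9.33 and 9.68 in ΔtR(CCU)J, against 10.08, 10.61 and 10.62 in wild type. These were the lowest readings of the series, since every other array was at 10.08 or above. The difference was -0.94 (SE 0.22, limma adjusted p = 0.0348), a signal 0.523 times that of wild type.

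These 3 calls depended on single arrays. Without ΔtR(CCU)J replicate 1 the difference was 0.62 for RSM22 (adjusted p = 0.149), 0.50 for MRP4 (0.174) and -0.76 for MRPL38 (0.184), and without wild-type replicate 2 it was 0.63 (0.0722), 0.62 (0.0804) and -0.85 (0.0888) in the same order. Without wild-type replicate 1 RSM22 was no longer called (adjusted p = 0.0531), and without wild-type replicate 3 MRP4 (0.0579) and MRPL38 (0.0731) were not. MRP4 was also lost without either ΔtM(CAU) array (0.0534) and with the replicate number as a block (0.0512). The median of all genes was itself 0.17 higher in ΔtR(CCU)J than in wild type. Relative to it the differences of RSM22, MRP4 and MRPL38 were 0.53, 0.52 and -1.10. When each array was centred on its median, no member was called higher and MRPL38 and MRP17 were called lower, with an adjusted p of 0.0665 for RSM22 and 0.0584 for MRP4.

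**Figure D2:**
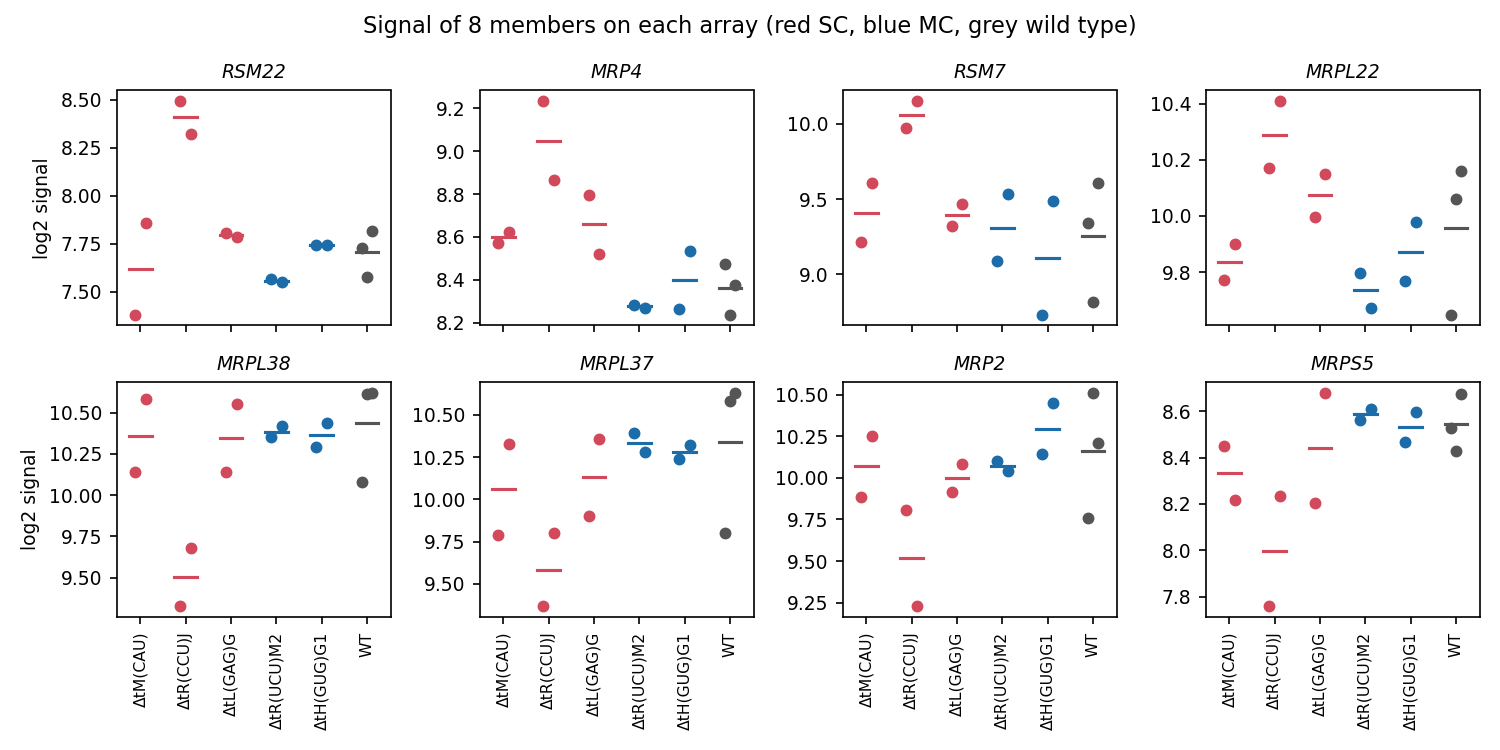
Log2 signal of 8 members on each of the 13 arrays, with the strain mean as a bar; SC strains in red, MC strains in blue, wild type in grey, and a vertical axis of its own for each gene that does not start at 0. RSM22, MRP4 and RSM7 had their highest and MRPL38, MRPL37, MRP2 and MRPS5 their lowest value on a ΔtR(CCU)J array, and wild-type replicate 1 was low for MRPL38, MRPL37 and MRP2.

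Other members had differences in ΔtR(CCU)J of the same size but did not pass the test. With arrays blocked by the wild-type array they correlate with best, 7 members were called, the 3 above with RSM7 higher and MRPL37, MRPS5 and MRPS12 lower. That fit called 1227 of all genes, against 466 without the block. The block was inferred from the same expression values that were then tested, so its calls are not independent support. RSM7, which encodes uS7 of the small subunit head, had the highest difference of all members. Its log2 signal was 9.97 and 10.15 in ΔtR(CCU)J, against 9.34, 8.82 and 9.60 in wild type, a difference of 0.80 (SE 0.28, limma adjusted p = 0.0932; 0.62 with an adjusted p of 0.0125 in the blocked fit). Its replicates also varied widely elsewhere, with 8.73 and 9.49 in ΔtH(GUG)G1. MRPL37 encodes mL54, a mitochondria-specific protein of the large subunit. Its log2 signal was 9.37 and 9.80 in ΔtR(CCU)J, against 9.80, 10.58 and 10.63 in wild type, a difference of -0.75 (SE 0.28, limma adjusted p = 0.105). Without wild-type replicate 1 the difference was -1.02 with a limma adjusted p of 0.0493. That array was the wild-type array closest to the deletion strain, so leaving it out enlarges the difference by construction. Leaving out any other single array gave no call for MRPL37. In the blocked fit the difference was -0.64 with an adjusted p of 0.0122.

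Of 5 further members with an unadjusted p under 0.05 in this strain, 4 encode proteins of the small subunit. MRPS5, the homologue of the bacterial protein uS5 that affects decoding accuracy, had log2 signals of 7.76 and 8.23 in ΔtR(CCU)J, against 8.53, 8.43 and 8.68 in wild type, a difference of -0.55. MRP2 (uS14) had 9.80 and 9.23 in ΔtR(CCU)J, against 9.76, 10.51 and 10.21 in wild type, a difference of -0.64 with overlapping arrays. MRPS12, which encodes uS12 at the decoding centre, and MRP17 (bS6) had differences of -0.43 and -0.38. MRPL40, which encodes uL24, an early assembling protein of the bacterial large subunit, had a difference of 0.35. None of these 5 passed the adjustment over all genes in the fit without a block (limma adjusted p from 0.0863 to 0.156). MRPS5 and MRPS12 passed with the block by wild-type array, MRPS5 and MRP17 after quantile normalization, and MRP17 after median centring.

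Counted without adjustment, ΔtR(CCU)J had 4 members higher and 6 lower at p under 0.05, against 22.7% and 8.98% of all genes. Both ΔtR(CCU)J arrays lay above all 3 wild-type arrays for 13 members and below them for 8, while 31.6% of all genes lay above and 12.5% below. The members' median difference was 0.08, below the 0.17 of all genes, with 37 members higher and 28 lower. Among large subunit genes the median was 0.11 and among small subunit genes 0.01. Members with a bacterial counterpart had a median of 0.07 and mitochondria-specific members 0.06. The members' differences were also the most spread out in this strain. Their SD over the 65 genes was 0.30 in ΔtR(CCU)J, 0.13 in ΔtM(CAU), 0.15 in ΔtL(GAG)G, 0.09 in ΔtR(UCU)M2 and again 0.09 in ΔtH(GUG)G1. Over the 3992 genes whose mean log2 signal exceeded 8, the SD was 0.39 in ΔtR(CCU)J, 0.19 in ΔtM(CAU), 0.25 in ΔtL(GAG)G, 0.15 in ΔtR(UCU)M2 and again 0.15 in ΔtH(GUG)G1, so the other genes were most spread out in the same strain.

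**Figure D3:**
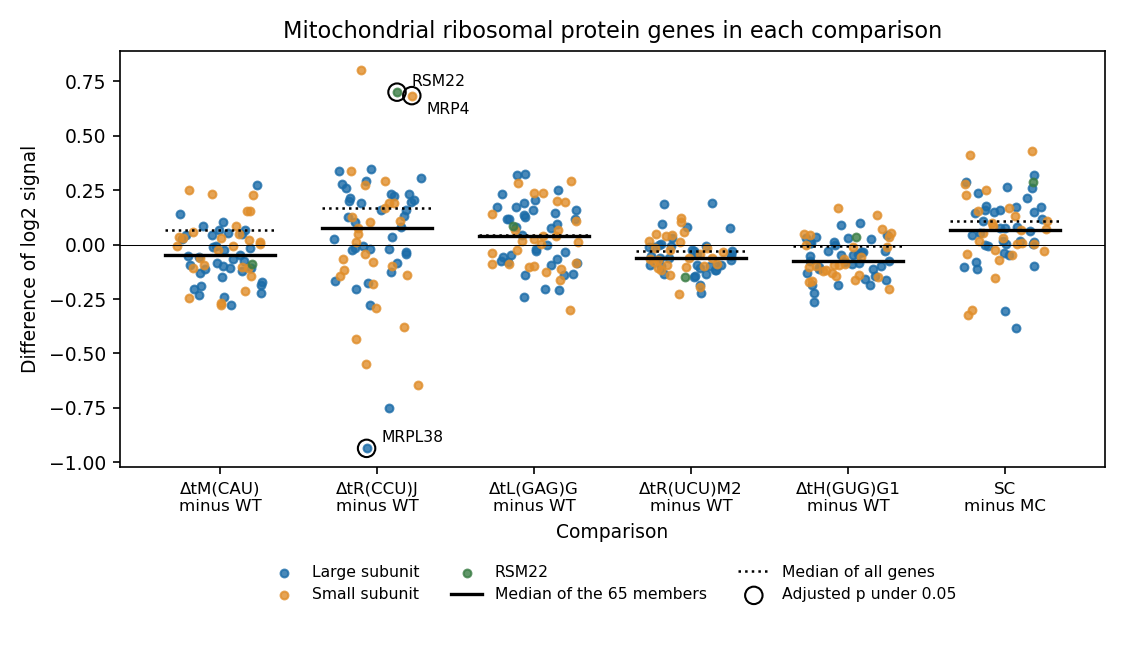
Difference of log2 signal for each of the 65 members in the 6 comparisons, 1 point per gene, coloured by subunit. Solid bars are the median of the members, dotted bars the median of all genes, and rings mark an adjusted p under 0.05. Only ΔtR(CCU)J has ringed genes, RSM22 and MRP4 above 0 and MRPL38 below, and its points spread most widely.

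In the other 4 strains no member was called. In ΔtM(CAU) no member was below an unadjusted p of 0.05 either, where 1.63% of all genes were higher and 0.533% lower. Of all genes 0.0367% were called higher and 0% lower (limma). The median of the members was -0.05 against 0.07 for all genes, and 25 members lay above wild type and 40 below. The 2 highest and 2 lowest differences were 0.27 for MRPL4 (uL29, beside the exit of the nascent chain tunnel), 0.25 for MRP13 (mS44), -0.28 for MRPL37 and -0.28 for MRPS12, all with adjusted p = 0.987. MRP13 was the only one of these without overlap, with 9.77 and 9.98 in ΔtM(CAU), against 9.70, 9.66 and 9.51 in wild type. Both ΔtM(CAU) arrays lay above all 3 wild-type arrays for 4 members and below them for 0, against 738 and 329 of the 5446 genes. The group median depended on ΔtM(CAU) replicate 1: relative to all genes it was -0.11 with both arrays and 0.019 without that array.

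In ΔtL(GAG)G the median of the members (0.04) was close to that of all genes (0.05), with 37 members higher and 28 lower. No member was called, and 0.0367% of all genes were called higher and 0.0184% lower (limma). MRPS9 (uS9) was the 1 member with an unadjusted p under 0.05, where 4.22% of all genes were higher and 3.71% lower. Its log2 signal was 9.90 and 9.84 in ΔtL(GAG)G, against 10.19, 10.18 and 10.14 in wild type, the lowest values of the series for this gene. The difference was -0.30 (SE 0.11, limma adjusted p = 0.586). MRPL40 had 8.35 and 8.38 in ΔtL(GAG)G, against 8.05, 8.05 and 8.02 in wild type, a difference of 0.33 (adjusted p = 0.631). MRPL4 (0.32) and MRPL35 (-0.24), the other extremes, had arrays that overlapped with wild type. Both ΔtL(GAG)G arrays lay above all 3 wild-type arrays for 8 members and below them for 1, against 854 and 587 of the 5446 genes.

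In the 2 MC strains no gene of the 5446 was called in either direction (0%), and no member had an unadjusted p under 0.05 (limma). Of all genes, 0.514% were higher and 0.808% lower at that level in ΔtR(UCU)M2, while 1.1% were higher and 0.643% lower in ΔtH(GUG)G1. The members' medians were -0.06 in ΔtR(UCU)M2, with 15 above wild type and 50 below, and -0.07 in ΔtH(GUG)G1, with 18 above and 47 below. All genes had medians of -0.03 and -0.01 in these strains. In ΔtR(UCU)M2 the extremes were MRP7 (bL27, close to the peptidyl transferase centre in bacteria, 0.19), MRPL24 (bL28, 0.19), MRPS16 (bS16, -0.23) and MRPL22 (uL22, which lines the exit tunnel, -0.22). In ΔtH(GUG)G1 they were MRPS35 (mS45, 0.17), MRP2 (0.14), MRPL19 (uL11, which helps to bind translation factors, -0.26) and MRPL20 (mL58, -0.22). MRPL24 alone among these 8 was separate from wild type, with 9.19 and 9.24 in ΔtR(UCU)M2, against 9.03, 9.10 and 8.96 in wild type. Both ΔtR(UCU)M2 arrays lay above all 3 wild-type arrays for 1 member and below them for 4, against 225 and 323 of the 5446 genes. For ΔtH(GUG)G1 the counts were 0 and 1 members, against 280 and 243 genes. For a typical member the 95% confidence interval of a strain difference, without adjustment over all genes, reached 0.38 to either side. Smaller differences were thus hard to tell from 0 with this number of arrays. Larger ones could also miss the adjusted threshold, as the 0.80 of RSM7 in ΔtR(CCU)J did.

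The SC strains were next set against the MC strains, as the mean of 3 SC strain means minus the mean of 2 MC strain means. The spread used for this contrast is that between replicate arrays of a strain. Its p-values and intervals thus do not measure how far strains of a group differ from each other. No member was called, whereas 0.165% of all genes were called higher and 0.0551% lower in SC strains (limma). At an unadjusted p under 0.05, 7 members were higher and 1 lower, against 20.9% and 8.83% of all genes. For no member did the 6 SC arrays lie wholly above or below the 4 MC arrays, a separation seen upward in 5.47% and downward in 2.15% of all genes. The median of the members was 0.07, against 0.11 for all genes, and 47 members were higher and 18 lower. The 95% interval of a typical member reached 0.27 to either side.

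The member with the smallest p was MRP4. Its log2 signal was 8.57 and 8.62 in ΔtM(CAU), 9.23 and 8.86 in ΔtR(CCU)J and 8.79 and 8.52 in ΔtL(GAG)G, against 8.28 and 8.27 in ΔtR(UCU)M2 and 8.26 and 8.54 in ΔtH(GUG)G1. Replicate 2 of ΔtH(GUG)G1 was the 1 MC array that overlapped the SC range. The difference was 0.43 (SE 0.11, limma adjusted p = 0.0616). Without the overlapping array it was 0.50. That array was singled out by its value, so leaving it out enlarges the difference by construction. RSM22 differed by 0.29 and MRPL40 by 0.29. For RSM22 the 4 arrays of ΔtM(CAU) and ΔtL(GAG)G had log2 signals of 7.38 to 7.86, which spanned the 7.55 to 7.75 of the MC strains. The largest differences beside that of MRP4 were 0.41 for RSM7, -0.38 for MRPL37 and -0.32 for MRP2 (limma adjusted p from 0.189 to 0.228). Among the SC strains each was largest in ΔtR(CCU)J. Against wild type RSM7 differed by 0.80 in ΔtR(CCU)J, 0.16 in ΔtM(CAU) and 0.14 in ΔtL(GAG)G. In the same order MRPL37 had -0.75, -0.28 and -0.20, MRP2 -0.64, -0.09 and -0.16, and MRPS5 -0.55, -0.21 and -0.10. MRPL11 (uL10, the stalk base) and MRPL17 (mL46) differed by 0.26 and 0.24, MRP1 (mS43) by 0.23 and MRPL22 by 0.26, and MRPS5 by -0.30, all above an adjusted p of 0.05. The group median of the members relative to all genes was -0.04, and it became 0.11 when arrays were blocked by the wild-type array they correlate with best. It was -0.12 with replicate 1 of each strain alone and 0.08 with replicate 2 alone, so its sign differed between the replicate sets.

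It was then asked how far the members varied together over the 13 arrays, after each array was centred on its own median. The median Pearson r over 2080 pairs of members was 0.34, and 77.0% of the pairs were positive. Pairs within the large subunit had a median of 0.39, pairs within the small subunit 0.31 and pairs across the subunits 0.34. For 127 cytosolic ribosomal protein genes the median was 0.96, for 37 nuclear genes of the respiratory chain and the ATP synthase 0.42, and for all genes brighter than a mean log2 signal of 8 it was 0.04. These r describe 13 arrays of 6 strains, which are not independent points, and they were not adjusted for how dim or steady a gene is.

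Most members followed the group, with a positive r to the median of the other members for 57 of the 65. The members' median SD was 0.19 between replicates of a strain and 0.18 over all 13 arrays, so variation between replicates enters these r. MRPL33 (uL30) had an r of 0.93, MRPL37 0.92 and MRPS12 0.91. Most also followed the cytosolic ribosomal protein genes, 52 with a positive r, and MRPL32 (bL32, which the m-AAA protease matures in yeast mitochondria) had the highest at 0.88. MRP4 ran opposite to both, with an r of -0.81 to the other members and -0.90 to the cytosolic genes. Without the ΔtR(CCU)J arrays, a choice made after the values were seen, these were -0.78 and -0.83 over 11 arrays, so the inverse course of MRP4 did not rest on that strain. For RSM22 it did: its r of -0.32 and -0.50 became 0.20 and 0.11. MRPL4 (-0.51), MRPL13 (-0.28), RSM7 (-0.28) and MRPL40 (-0.28) were also inverse to the other members over the 13 arrays. Without the ΔtR(CCU)J arrays the r was -0.57 for MRPL4 and -0.23 for MRPL13, but -0.02 for RSM7 and -0.04 for MRPL40.

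**Figure D4:**
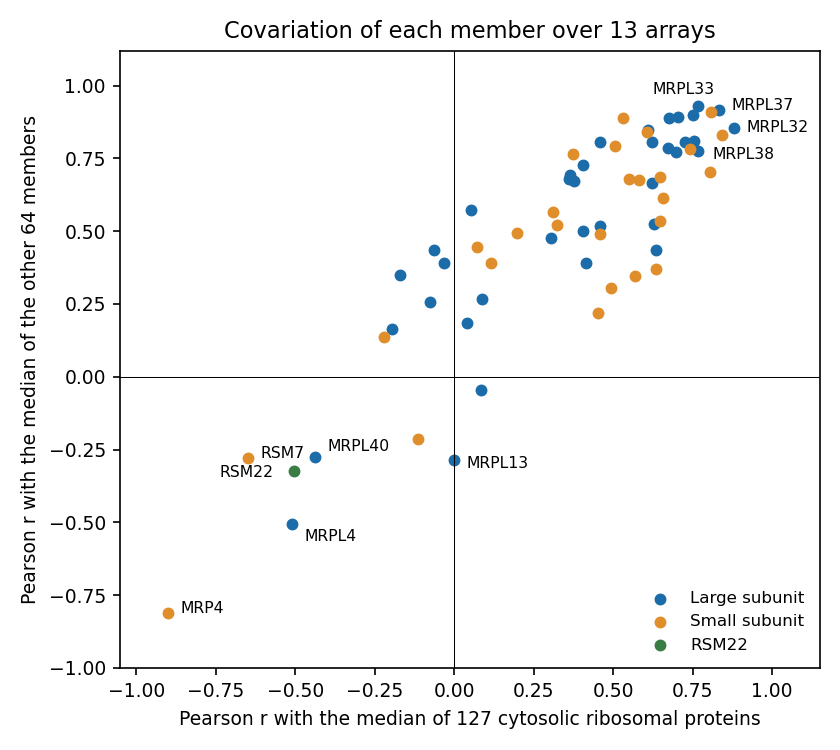
Pearson r of each member over the 13 median-centred arrays, with the median of the 127 cytosolic ribosomal protein genes (horizontal) and with the median of the other 64 members (vertical), 1 point per gene coloured by subunit. Most points lie at the upper right, with MRPL32 at 0.88 on the horizontal axis, and MRP4 lies farthest to the lower left (-0.90 and -0.81), where MRPL4, RSM7, RSM22 and MRPL40 also have negative values on both axes.

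The spread of single members differed widely. The SD of the centred log2 signal over the 13 arrays was highest for MRPL38 (0.46), MRPL37 (0.44) and MRP2 (0.38), and within strains the replicates of these 3 genes had an SD of 0.27, 0.35 and 0.27. It was lowest for MRPL7 (uL5, 0.05), MRPL3 (mL44, 0.10) and MRPL11 (0.10), against a median of 0.18 over the members and 0.21 over the 3992 brighter genes. MRPL7 lay between 9.58 and 10.04 on the log2 scale on all arrays before centring, and its ΔtR(CCU)J values of 10.04 and 9.94 were the highest of the series.

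Genes that work with the mitochondrial ribosome were counted in the same fit. Of 14 further mitochondrial ribosomal proteins with other names, MNP1, which encodes bL12 of the stalk, fell in ΔtR(CCU)J. Its log2 signal was 9.66 and 10.11 in ΔtR(CCU)J, against 10.43, 11.01 and 10.72 in wild type, a difference of -0.84 (SE 0.20, limma adjusted p = 0.0385). Of 12 mitochondrial translation factors 3 rose in ΔtR(CCU)J, where 6.63% of all genes were called higher and 1.93% lower. MEF2, a factor that acts in ribosome recycling, had 9.67 and 9.47 in ΔtR(CCU)J, against 8.35, 7.96 and 8.76 in wild type, a difference of 1.21 (SE 0.29, limma adjusted p = 0.0374). GUF1, a homologue of the bacterial back-translocating factor LepA, rose by 0.70 and PET112, a subunit of the enzyme that makes glutaminyl-tRNA, by 0.68. No translation factor fell. MNP1 and GUF1, and ATP22 and IME2 below, lie outside the rule for naming genes and were chosen after their values were seen. Whether the calls of genes other than the 65 members hold under the alternative fits was not examined. Over all genes the calls in ΔtR(CCU)J fell from 466 to 228 with median centring and to 251 with quantile normalization. A fit of only the arrays compared called 5.

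None of 13 mitochondrial aminoacyl-tRNA synthetases was called in ΔtR(CCU)J, although all 13 differences were positive with a median of 0.36, and 5 were higher at an unadjusted p under 0.05. In the same comparison 3652 of the 5446 genes were positive with a median of 0.17, and 22.7% were higher at that level. None of 13 assembly factors was called either (median 0.16, 4 at p under 0.05). Of 21 translational activators and membrane insertion factors 1 was called higher (ATP22, 0.73). Their median was 0.28, with 8 higher and 0 lower at an unadjusted p under 0.05. Of 32 import genes 1 was called higher (MIA40, 0.82), but their median was -0.10, with 15 differences positive and 17 negative. At an unadjusted p under 0.05, 3 import genes were higher and 6 lower, against 22.7% and 8.98% of all genes. Of 7 retrograde targets 1 was called higher (CIT1, mitochondrial citrate synthase, 1.53). Of all genes 6.63% were called higher. Of the 37 respiratory chain and ATP synthase genes and the 16 regulators of mitochondrial gene expression none was called, with 2 and 5 below an unadjusted p of 0.05. The 127 cytosolic ribosomal protein genes had a median of -0.41 in ΔtR(CCU)J, and 126 of them had a negative difference. At an unadjusted p under 0.05, 102 were lower, against 8.98% of all genes, and 4 were called lower after adjustment. Of 6 sporulation markers IME2 rose by 1.05 in ΔtR(CCU)J, and the 3 α-specific markers had a median of -0.64 with none called; whether these moved with the members was not tested. In SC against MC strains no gene of these lists was called, with 5 of 12 translation factors and 7 of 13 synthetases higher at an unadjusted p under 0.05, and 122 of the 127 cytosolic ribosomal protein genes lower, against 20.9% of all genes higher and 8.83% lower.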

How the data were processed

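The authors deposited 1 intensity per probe set and array on a linear scale. Per the methods the background was adjusted with RMA and the arrays were normalized, and the labels name GCRMA without a version; the values showed the same trimmed mean on every array (500.2 to 500.3) but unequal quantiles. The log2 of each intensity was taken with no offset, because the planned tests assumed a log scale. Of 10928 probe sets, 5495 belong to 1 gene, and the brightest was used for the 47 genes with several. Gene and unified protein names came from RefSeq (64 members matched).

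Differences were computed with limma 3.58.1 (R 4.3.3) in 1 model of 13 arrays, with 1 mean per strain, a constant prior variance and Benjamini-Hochberg adjustment over 5446 genes, and the fit was tested on simulated data. The number of arrays limits the precision. Members, lists and rules were chosen with earlier results of these data known. Named members are called ones, the 2 highest and 2 lowest differences per comparison, and the 3 most and least variable; others with an unadjusted p under 0.05 were named after their values were seen. Replicates are labelled biological, so p-values measure the spread between replicate arrays of a strain, and not between strains of a group. Deviations of same-numbered deletion arrays correlated with r of 0.030 to 0.449 over all genes and 0.102 to 0.661 over genes with a mean log2 signal over 8. Per the methods each strain was compared with wild type from the same batch, but the sources used here do not name the batch of each array, so all 3 wild-type arrays entered 1 fit without a block; no source ties the replicate numbers to batches. Alternatives were the replicate block, a block by the best correlated wild-type array, median centring, quantile normalization, a filter on dim genes, the mean of probe sets, a trended robust prior, only the arrays compared, only replicate 1 or only replicate 2 for SC against MC strains, and leaving out each array.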

Additional observations from a re-analysis of the deposited data

Results flagged for a closer look

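The group level and the named members were looked at for a single array far from the others of its class, in 46 groups of 6 SC or 4 MC arrays, where chance flags about 5% of groups. MRP4 had a log2 signal of 8.54 on replicate 2 of ΔtH(GUG)G1, while the other 3 MC arrays lay between 8.26 and 8.28. MRPL3 had 9.50 on replicate 1 of ΔtM(CAU), while the other 5 SC arrays lay between 9.78 and 9.87. MRPL24 had 9.24 on replicate 1 of ΔtR(CCU)J, against 9.08 to 9.13 on the other 5 SC arrays.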

How the results depend on the processing

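In ΔtR(CCU)J the 3 called members became 2 with the replicate block (MRPL38 and RSM22), 7 with arrays blocked by their best correlated wild-type array (RSM22, MRP4 and RSM7 higher, MRPL38, MRPL37, MRPS5 and MRPS12 lower), 0 in a fit of only the arrays compared, and 0 to 3 when single arrays were left out. Over all genes those fits called 415, 1227 and 5 genes, against 466 in the fit reported. Median centring gave 0 members higher and 2 lower, and quantile normalization 0 higher and 3 lower. RSM22, MRP4 and MRPL38 kept their direction in all 20, 21 and 21 alternatives run and passed the threshold in 14, 12 and 17. In SC against MC strains 1 member (MRP4) was called with dim genes left out and with a trended robust prior, and 0 to 1 without single arrays. In the other 4 comparisons the count was 0 under every alternative run. Leaving out single arrays gave group medians relative to all genes of -0.21 to 0.019 in ΔtM(CAU), -0.21 to -0.02 in ΔtR(CCU)J, -0.10 to 0.08 in ΔtL(GAG)G, -0.11 to 0.02 in ΔtR(UCU)M2, -0.13 to -0.01 in ΔtH(GUG)G1 and -0.09 to -0.01 in SC against MC strains, and the block by wild-type array gave -0.07, -0.04, 0.02, -0.09, -0.12 and 0.11 in these 6 comparisons. Replicate 1 alone gave -0.12 and replicate 2 alone 0.08 in SC against MC strains. MRP2 in ΔtH(GUG)G1 ranged from -0.065 without wild-type replicate 1 to 0.31 without wild-type replicate 2, and was -0.021 without ΔtH(GUG)G1 replicate 2. Without the ΔtR(CCU)J arrays the r of RSM22 turned to 0.20 with the other members and 0.11 with cytosolic ribosomal protein genes. The cause of these shifts was not tested. With 2 arrays per strain, a strain left with 1 array was assumed to vary like the others.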
